A study of Mus musculus with 8 samples.

Results

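The genes described here code for the proteins that hold latent TGF-β outside the cell: the latent TGF-β binding proteins *Ltbp1*, *Ltbp2*, *Ltbp3* and *Ltbp4*, the fibrillins *Fbn1* and *Fbn2*, and the membrane presenters *Lrrc32* and *Nrros*. They were taken by name, 8 of the 54532 gene identifiers in the count files, and all 8 passed the filter on low counts that left 22544 genes tested. RNA was sequenced from 8 primary cultures labelled as pericytes, grown from the brains of wild-type (WT) mice, 4 treated with TGF-β1 at 5 μg/mL for 48 h (cultures 5 to 8) and 4 with vehicle for the same time (cultures 1 to 4). The design asks which genes change when pericytes receive the cytokine. Per the study's methods, the cells were expanded over several passages, first in an endothelial growth medium and then in a pericyte medium, and no strain or age of the mice is given in the labels. The methods speak of 4 isolates that received vehicle and TGF-β1 and the labels of 8 cultures, so a vehicle and a treated culture may share an isolate, which the tests below do not take into account.

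TGF-β is secreted in an inactive form, wrapped in its own propeptide. In most cells the propeptide is bound through disulfide bonds to an LTBP, which anchors the complex in the extracellular matrix, where fibrillin microfibrils serve as the scaffold. On some cells GARP (*Lrrc32*) or its relative NRROS (*Nrros*) holds the complex on the plasma membrane instead, and integrins or proteases then free the cytokine. Pericytes share the basement membrane of the capillary wall with endothelial cells, and signalling by TGF-β between these cell types is a textbook part of vessel maturation.

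The vehicle cultures held 45255235 to 47651397 counts each and the TGF-β1 cultures 45988208 to 46827358, and 3 counts amounted to 0.0631 to 0.0658 CPM. A CPM value is a gene's count per 1000000 counts of the library, scaled with edgeR's TMM factors. Of the pericyte markers, *Pdgfrb* (9117 to 9663 counts in the vehicle cultures), *Cd248* (7031 to 7564), *Notch3* (4083 to 4120), *Cspg4* (3683 to 3932) and *Tbx18* (2793 to 3009) were abundant. In contrast, *Kcnj8* (0 to 2), *Abcc9* (0 to 9) and *Vtn* (2 to 6), which define brain pericytes in tissue, were at or near 0. Among 12 tested markers of 15 on that list, 5 were higher with TGF-β1 (*Pdgfrb*, *Cspg4*, *Mcam*, *Ndufa4l2* and *Cd248*) and 4 lower (*Rgs5*, *Anpep*, *Atp13a5* and *Tbx18*). *Rgs5* fell from 379 to 419 counts to 90 to 113. *Des* had 26 to 36 counts with vehicle and 25 to 32 with TGF-β1 and was not called. Neither was *Notch3* (log2 fold change -0.04). The summed level went from 643.1 to 661.9 CPM to 806.1 to 836.6 CPM. Within it, mean *Pdgfrb* went from 202.1 to 291.4 CPM and mean *Cspg4* from 82.9 to 169.2 CPM. The fibroblast markers summed to 2428 to 2552 CPM without and 3804 to 3967 CPM with TGF-β1, most of it *Col1a1* and *Col3a1*. Of the 8 tested, these 2 were higher and 3 were lower (*Dcn*, *Dpt* and *Cd34*). *Pdgfra* was not called (log2 fold change 0.01). With vehicle, *Pdgfra* had 2831 to 2975 counts and *Dcn* 2294 to 2549. By contrast, *Lum* (2 to 6), *Slc6a13* (3 to 6), *Col15a1* (10 to 25), *Dpt* (18 to 28) and *Pi16* (22 to 35) were low. Endothelial markers summed to 476.4 to 489.1 and 478.5 to 503.3 CPM (3 of 7 called), most of it *Cdh5*, while *Pecam1* had 36 to 75 counts in the vehicle cultures. Macrophage and microglia markers summed to 109.0 to 114.2 and 108.6 to 110.6 CPM (1 of 8 called), most of it *Tmem119*, with *C1qa* at 0 to 2 counts. Astrocyte markers summed to 54.9 to 61.9 CPM without and 40.7 to 45.7 CPM with TGF-β1 (4 of 5 called, 2 in each direction). *Slc1a2*, most of the sum with vehicle, fell from a mean of 38.5 to 16.3 CPM, and *S100b* fell as well. *Aldh1l1* and *Slc1a3* rose, while *Aqp4* was at 0 in every vehicle culture. T cell and platelet markers summed to 10.3 to 11.8 and 9.17 to 10.4 CPM (1 of 4 called), with *Cd3e* at 0 to 6 counts and *Pf4* at 0 in every TGF-β1 culture. The numbers of called markers are to be read against all genes tested, of which 41.3% were called, 20.9% as higher and 20.3% as lower. The part of these markers in the results below was not tested, and in bulk RNA fewer cells of a type and less RNA per cell cannot be told apart.

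Of the 8 genes, 6 were higher with TGF-β1 and 1 was lower, at an adjusted p under 0.05 (quasi-likelihood test of edgeR, adjusted by Benjamini-Hochberg over all 22544 genes). The treatment moved much of the transcriptome: 41.3% of all genes tested were called, 20.9% as higher and 20.3% as lower. For 7 of the 8 genes the values of the TGF-β1 and the vehicle cultures did not overlap, which held for 37.9% of all genes tested. With the size threshold that the study's methods add, an absolute log2 fold change over 1.5, *Ltbp2* and *Fbn1* passed, against 2.00% of all genes tested. The median absolute log2 fold change was 0.38 over the 8 genes and 0.18 over all genes. Being few and chosen with results known, the 8 genes were read against these background values, which were not matched for expression level, and not tested as a group.

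**Figure D1:**
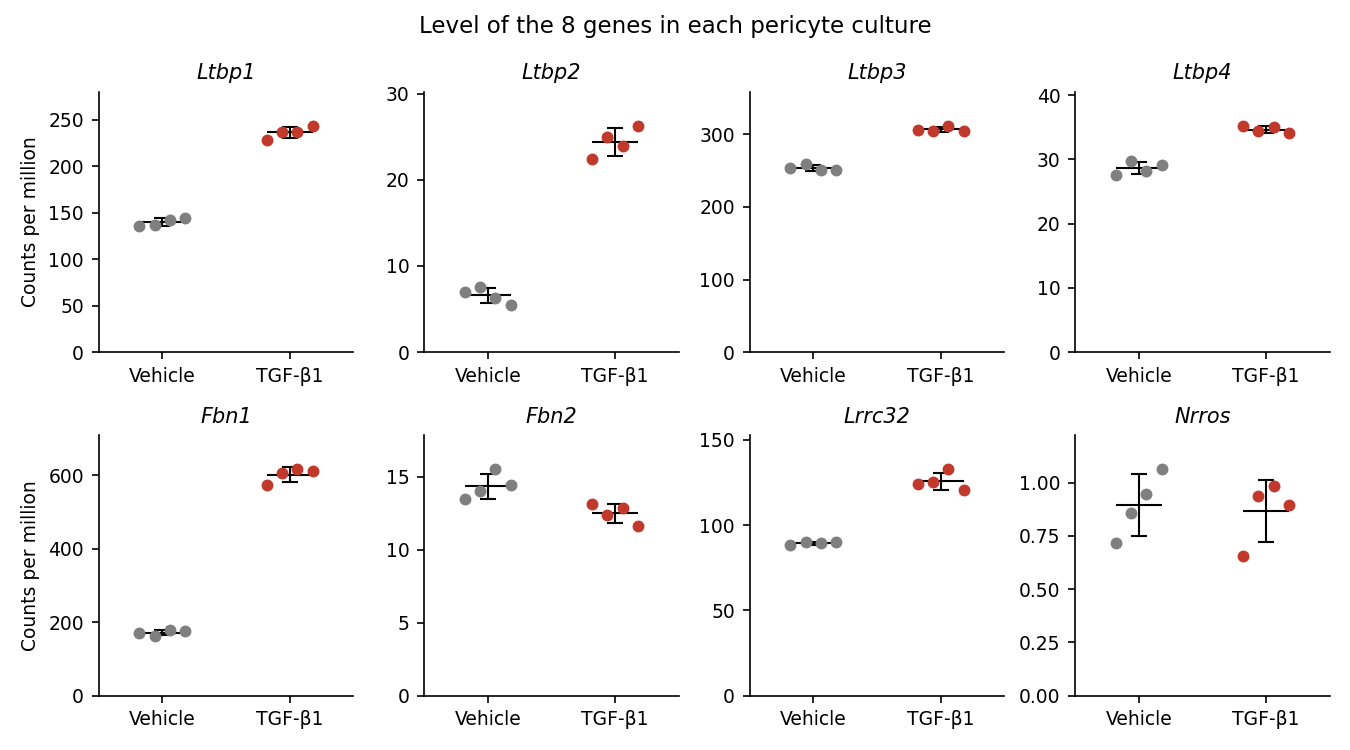
CPM of the 8 genes in each culture, vehicle in grey and TGF-β1 in red, with the mean and SD of 4 cultures as a bar and whiskers. Every axis starts at 0. The red points lie above the grey ones for 6 genes, below them for *Fbn2*, and overlap them for *Nrros*.

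Among the LTBPs, *Ltbp2* had the largest change and the lowest level. Its product binds fibrillin microfibrils but, unlike its 3 relatives, is not known to bind the TGF-β propeptide. *Ltbp2* (ENSMUSG00000002020) lies on chromosome 12 at 84783212 to 84876532, minus strand, with positions taken from GENCODE M21 (GRCm38, which is mm10). Upstream sequence is shown for *Ltbp1*, *Ltbp2* and *Ltbp3*, because the Smad proteins that carry the TGF-β signal bind the short Smad box CAGAC. These 3 are the LTBP genes with a match. *Ltbp4*, which rose by nearly the same proportion as *Ltbp3*, had none and is not shown, so the runs cannot tell whether a match goes with a rise. Each run covers 250 to 51 bases before a RefSeq transcription start (RefSeq windows on GRCm38.p6), 5′ to 3′ on the gene's strand, with CAGAC or its reverse complement GTCTG in capitals. The run of *Ltbp2* also lies within an exon of the noncoding antisense gene *D030025P21Rik*, while those of *Ltbp1* and *Ltbp3* overlap no exon of the 8 genes.
Ltbp2, chr12:84876542-84876741, minus strand: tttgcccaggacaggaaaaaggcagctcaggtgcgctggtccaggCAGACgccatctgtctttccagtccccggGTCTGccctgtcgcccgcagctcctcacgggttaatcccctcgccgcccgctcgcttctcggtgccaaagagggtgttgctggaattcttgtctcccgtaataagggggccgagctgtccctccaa
Ltbp1, upstream start, chr17:75005279-75005478, plus strand: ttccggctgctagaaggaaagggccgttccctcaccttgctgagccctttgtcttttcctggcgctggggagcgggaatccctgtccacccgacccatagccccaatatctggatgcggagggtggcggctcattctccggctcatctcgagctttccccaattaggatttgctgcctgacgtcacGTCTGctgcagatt
Ltbp1, downstream start, chr17:75178531-75178730, plus strand: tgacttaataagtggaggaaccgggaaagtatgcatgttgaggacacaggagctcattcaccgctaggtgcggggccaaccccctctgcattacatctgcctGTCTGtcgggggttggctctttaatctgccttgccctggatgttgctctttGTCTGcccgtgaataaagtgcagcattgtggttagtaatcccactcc
Ltbp3, chr19:5740650-5740849, plus strand: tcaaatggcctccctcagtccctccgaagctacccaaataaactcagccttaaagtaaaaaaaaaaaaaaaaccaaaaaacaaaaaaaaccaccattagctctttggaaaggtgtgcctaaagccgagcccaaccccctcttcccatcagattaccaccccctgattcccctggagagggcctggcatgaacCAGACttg

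The full RefSeq windows, from 250 bases before to 50 after a start, held 3 matches to the Smad box for *Ltbp2* (2 of them in the run above), 1 and 2 for the upstream and downstream starts of *Ltbp1*, 2 for *Ltbp3* and 1 for *Nrros*. None was found in the window of *Fbn1* or in any of the 3 windows of *Ltbp4*, and *Fbn2* and *Lrrc32* were not scanned. Such short letters are common: 49.6% of 32851 mouse windows held at least 1 match, 16.2% at least 2 and 3.90% at least 3. The AP-1 site TGANTCA, found in 7.81% of windows, occurred among the 9 windows of the 6 scanned genes in that of *Ltbp3* only, outside the run printed above. A match is a description of the letters and not of binding.

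The counts of *Ltbp2* were 320, 346, 299 and 254 in the vehicle cultures 1 to 4 and 1026, 1145, 1094 and 1233 in the TGF-β1 cultures 5 to 8. Every treated culture was thus far above every control. Scaled for depth, the level was 6.58 ± 0.89 CPM with vehicle and 24.4 ± 1.63 CPM with TGF-β1 (SD, n = 4), a log2 fold change of 1.89 (SE 0.07, adjusted p = 2.39e-23 in edgeR's quasi-likelihood test). The gene stood at place 125 of the 22544 genes when ordered from the largest rise to the largest fall. Of its exon bases, 764 (9.34%) also belong to exons of the antisense gene *D030025P21Rik*, which had 10 to 15 counts in the vehicle and 29 to 40 in the TGF-β1 cultures. These counts are a small fraction of those of *Ltbp2*, and the strand setting of the counting is not given in the sources used here.

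*Ltbp1*, which codes for a carrier of latent TGF-β, rose less in proportion but from a far higher level. It spans chromosome 17 from 75005568 to 75392512 on the plus strand (ENSMUSG00000001870). The vehicle cultures had 136.1, 137.2, 141.7 and 144.6 CPM and the TGF-β1 cultures 228.5, 237.3, 236.5 and 243.3 CPM. The means were 139.9 ± 3.96 and 236 ± 6.08 CPM, a rise of 69.0% (log2 fold change 0.76, SE 0.03, adjusted p = 4.31e-27 by edgeR).

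*Ltbp3* and *Ltbp4* rose by nearly the same small proportion. *Ltbp3*, also a carrier of latent TGF-β (ENSMUSG00000024940, chromosome 19, 5740904 to 5758532, plus strand), had 252.9, 259.4, 251.2 and 251.0 CPM with vehicle and 306.0, 305.1, 311.4 and 304.6 CPM with TGF-β1. The log2 fold change was 0.27 (SE 0.02, adjusted p = 7.57e-14 by edgeR), or 21.0% on the means. *Ltbp4*, which carries latent TGF-β1 and takes part in elastic fibre assembly (ENSMUSG00000040488, chromosome 7, 27305136 to 27337692, minus strand), had 27.5, 29.7, 28.1 and 29.1 CPM with vehicle and 35.2, 34.3, 35.0 and 34.1 CPM with TGF-β1. Its log2 fold change was 0.28 (SE 0.04, adjusted p = 3.06e-07 by edgeR), or 21.1% on the means. The spread between cultures was small beside these rises, the SD being 1.57% and 1.02% of the mean for *Ltbp3* and 3.36% and 1.55% for *Ltbp4* in the vehicle and TGF-β1 cultures. The 95% intervals of their log2 fold changes, 0.23 to 0.32 and 0.19 to 0.36, overlapped each other and lay below those of *Ltbp1* (0.70 to 0.81) and *Ltbp2* (1.74 to 2.03).

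**Figure D2:**
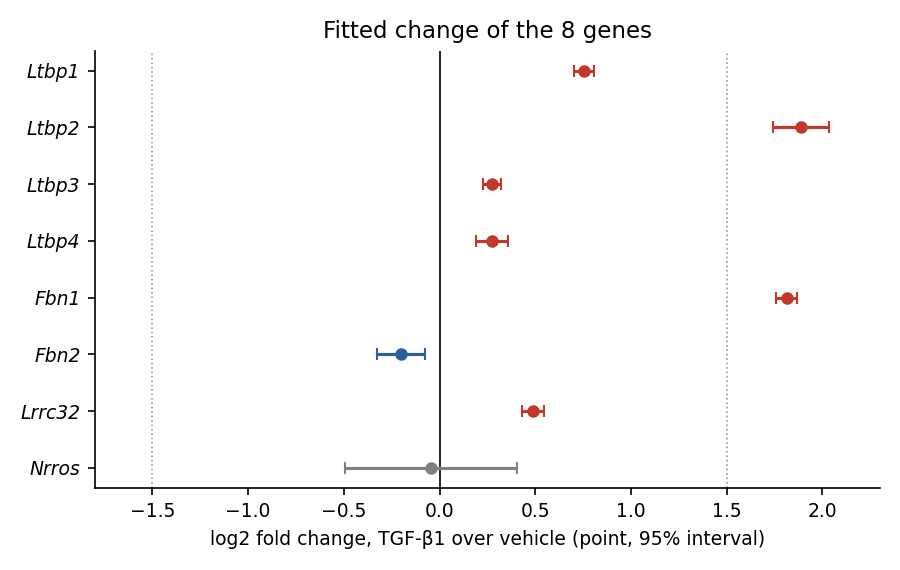
Fitted log2 fold change of the 8 genes, TGF-β1 over vehicle, with its 95% interval. Red marks genes called as higher, blue genes called as lower and grey genes not called at an adjusted p of 0.05, and the dotted lines stand at 1.5 in either direction. The points of *Ltbp2* (1.89) and *Fbn1* (1.81) lie past the dotted line, and the interval of *Nrros* (-0.50 to 0.40) crosses 0.

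These unequal rises changed the make-up of the LTBP transcripts. With counts divided by exon length, *Ltbp3* was the most abundant LTBP in every culture, but its share fell from 60.4% ± 0.64 to 52.6% ± 0.66 of the LTBP transcripts (SD, n = 4). The share of *Ltbp1* rose from 28.3% ± 0.84 to 34.4% ± 0.58, and that of *Ltbp2* from 1.74% ± 0.23 to 4.63% ± 0.27. *Ltbp4*, although its own level rose, went from 9.57% ± 0.22 to 8.34% ± 0.20. In each of the 4 shares the TGF-β1 and vehicle cultures did not overlap, and each difference had p = 0.0286 in an exact two-sided permutation test over the 35 splits of the cultures, the smallest p that 4 against 4 can give (0.0286 after adjustment over the 4 shares, which sum to 100% and so are not independent).

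The summed level of *Ltbp1* to *Ltbp4* went from 46.3 ± 0.53 to 64.3 ± 0.72 CPM per kilobase of exon. For the 3 genes whose products carry the TGF-β propeptide, *Ltbp1*, *Ltbp3* and *Ltbp4*, it went from 45.5 ± 0.50 to 61.3 ± 0.58. The ligands *Tgfb1*, *Tgfb2* and *Tgfb3* together went from 42.2 ± 0.47 to 47.7 ± 0.90 on the same scale. The carriers were thus 1.08 ± 0.02 times the ligands in the vehicle cultures (range 1.06 to 1.11) and 1.29 ± 0.02 times in the TGF-β1 cultures (range 1.27 to 1.30). This is a ratio of transcript levels and holds no information on protein. It was taken with exon length only, and whether the carriers exceed the ligands with coding length was not tested.

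**Figure D3:**
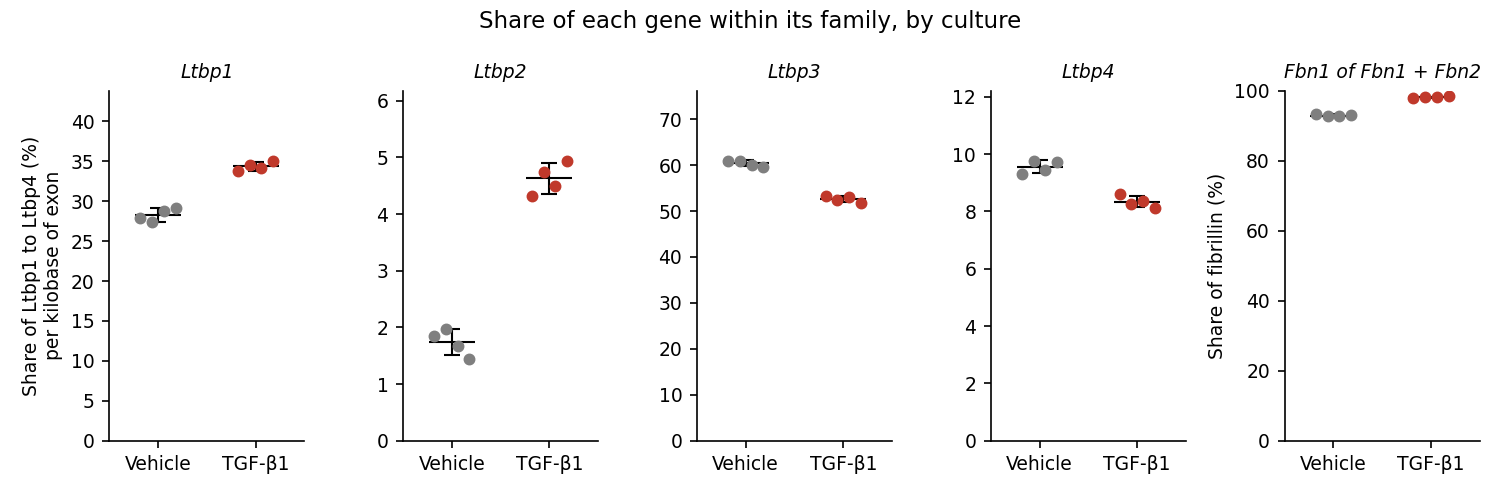
Share of each LTBP in the summed level of *Ltbp1* to *Ltbp4*, and of *Fbn1* in that of *Fbn1* and *Fbn2*, in percent and per kilobase of exon, for each vehicle (grey) and TGF-β1 (red) culture with the mean and SD. All axes start at 0 and their scales differ. The shares of *Ltbp1*, *Ltbp2* and *Fbn1* were higher and those of *Ltbp3* and *Ltbp4* lower in all 4 TGF-β1 cultures.

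The fibrillins moved in opposite directions. *Fbn1*, which codes for the main fibrillin of adult microfibrils, was at 169.4, 162.7, 177.9 and 175.7 CPM with vehicle and at 573.2, 606.9, 616.2 and 612.9 CPM with TGF-β1. Its lowest treated culture had 3.22 times the level of its highest control. The means were 171.4 ± 6.82 and 602 ± 19.8 CPM (SD, n = 4), a 3.51-fold difference (log2 fold change 1.81, SE 0.03, adjusted p = 5.47e-37 by edgeR), at place 140 of 22544 in the order from rise to fall. The gene (ENSMUSG00000027204) spans chromosome 2 from 125300594 to 125507993 on the minus strand. Of its exon bases, 2442 (20.1%) are also exon of *Gm9913* on the opposite strand, all within a first exon of 2554 bases in the transcript model Fbn1-202. *Gm9913* itself had 16 to 27 counts with vehicle and 40 to 62 with TGF-β1, against 7420 to 8452 and 26270 to 28805 for *Fbn1*. The RefSeq window of *Fbn1* lies in that same exon of *Fbn1* itself and is not printed.

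*Fbn2* codes for the fibrillin of embryonic and regenerating tissue. Its level (ENSMUSG00000024598, chromosome 18) was 13.5, 14.1, 15.5 and 14.4 CPM with vehicle and 13.1, 12.4, 12.8 and 11.6 CPM with TGF-β1. The groups were adjacent without overlap, the highest treated culture at 13.1 CPM and the lowest control at 13.5 CPM. The mean fell by 13.0%, from 14.4 ± 0.86 to 12.5 ± 0.66 CPM (log2 fold change -0.20, SE 0.06, adjusted p = 0.00788 by edgeR). This call rested on single cultures: without vehicle culture 3 the adjusted p was 0.0623, and without TGF-β1 culture 8 it was 0.0545.

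Per kilobase of exon, *Fbn1* made up 92.9% ± 0.29 of the fibrillin transcripts in the vehicle and 98.1% ± 0.14 in the TGF-β1 cultures (exact two-sided permutation test, p = 0.0286). The ratio of *Fbn1* to *Fbn2* was 12.5 to 13.7 with vehicle and 47.6 to 57.5 with TGF-β1. All 4 treated cultures lay above all 4 controls in this ratio.

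Of the membrane presenters, *Lrrc32* was by far the more abundant. It codes for GARP, best known from regulatory T cells and platelets, where it displays latent TGF-β on the surface (ENSMUSG00000090958, chromosome 7, 98489283 to 98502181, plus strand). *Lrrc32* was at 88.2, 89.9, 89.7 and 90.2 CPM with vehicle and at 124.3, 125.1, 132.7 and 120.5 CPM with TGF-β1. The 4 controls lay within 1.98 CPM of each other, and every treated culture was at least 30.2 CPM above each of them. The means were 89.5 ± 0.87 and 126 ± 5.14 CPM, a rise of 40.4% (log2 fold change 0.49, SE 0.03, adjusted p = 7.28e-19 by edgeR). The T cell marker *Cd3e* had 0 to 6 counts in these cultures and *Pf4* of platelets 0 to 7, against 4067 to 6083 counts of *Lrrc32*. Other genes of that marker list were not at 0: *Foxp3*, of regulatory T cells, had 174 to 211 counts with vehicle and 158 to 183 with TGF-β1, and *Itga2b*, of platelets, 266 to 326 and 234 to 287.

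*Nrros*, known from macrophages and microglia (ENSMUSG00000052384, chromosome 16, 32142785 to 32165594, minus strand), was close to the limit of what this depth can compare. It had 33, 39, 45 and 49 counts with vehicle and 30, 43, 45 and 42 with TGF-β1, and the groups overlapped. The levels were 0.90 ± 0.15 and 0.87 ± 0.15 CPM, with a log2 fold change of -0.05 whose 95% interval ran from -0.50 to 0.40 (adjusted p = 0.895 by edgeR). A fall to 0.71 of the vehicle level and a rise to 1.32 times it are both inside that interval. Of the macrophage and microglia markers, *Csf1r* was the called one, with 45 to 86 counts with vehicle and 106 to 132 with TGF-β1. Per kilobase of exon, *Lrrc32* was 98.9% ± 0.17 of the presenter transcripts with vehicle and 99.2% ± 0.12 with TGF-β1, a difference of 0.34 percentage points (exact two-sided permutation test, p = 0.0286). That p is the smallest that 4 against 4 can give, and the groups nearly touched, at 99.1% (highest control) and 99.17% (lowest treated culture). As *Nrros* was not called and had few counts, the share adds little beyond the rise of *Lrrc32*.

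Compared per kilobase of exon, the vehicle cultures had most of *Ltbp3* (28.0 ± 0.44), followed by *Lrrc32* (19.1 ± 0.19), *Fbn1* (14.1 ± 0.56) and *Ltbp1* (13.1 ± 0.37), the latter pair overlapping in range. *Ltbp4* (4.43 ± 0.15), *Fbn2* (1.09 ± 0.07), *Ltbp2* (0.80 ± 0.11) and *Nrros* (0.21 ± 0.03) were lower, and no other neighbours in this order overlapped. With TGF-β1 the order began with *Fbn1* (49.7 ± 1.63), then *Ltbp3* (33.8 ± 0.35), *Lrrc32* (26.8 ± 1.10) and *Ltbp1* (22.1 ± 0.57). *Ltbp2* (2.98 ± 0.20) then stood above *Fbn2* (0.95 ± 0.05), the reverse of their order with vehicle, and no neighbours overlapped. The top of the order depended on how length was counted. With coding length, *Ltbp3* (78.7 ± 0.80) stayed above *Fbn1* (69.9 ± 2.29) with TGF-β1, *Fbn1* and *Lrrc32* (63.2 ± 2.59) overlapped, and *Ltbp1* (26.6 ± 0.75) stood above *Fbn1* (19.9 ± 0.79) with vehicle. The exchange of *Ltbp2* and *Fbn2* was seen with either length.

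**Figure D4:**
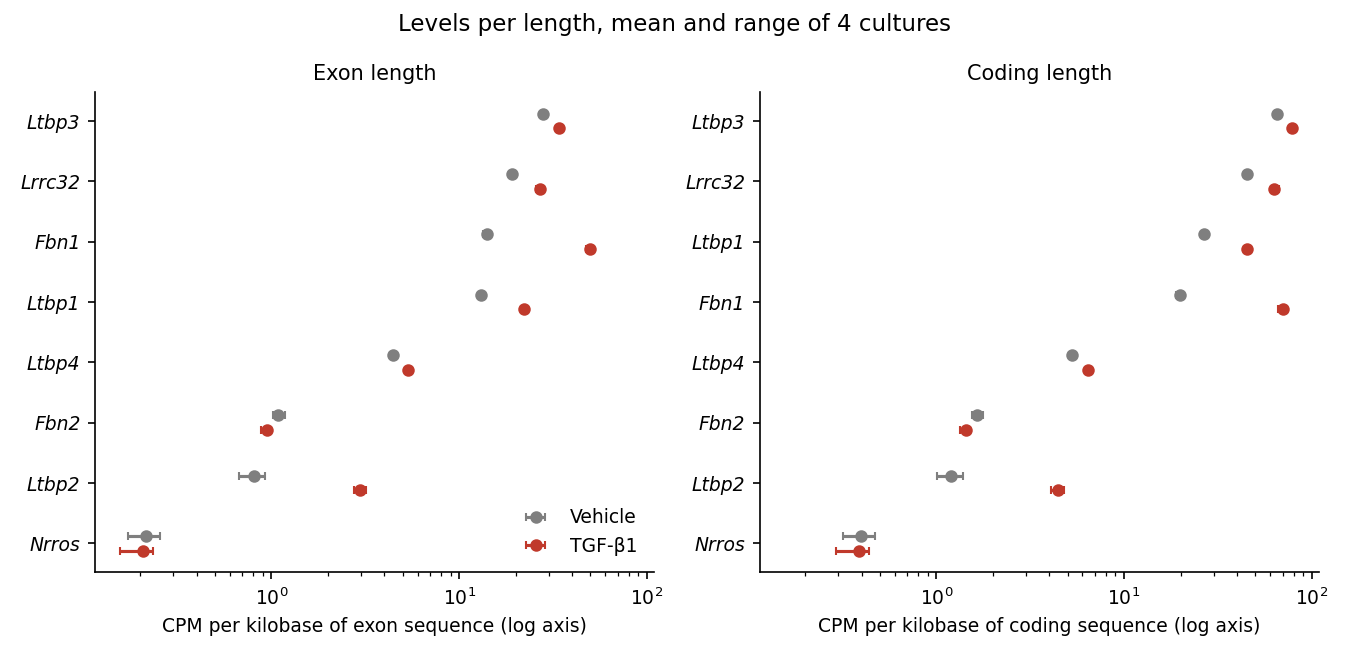
Levels of the 8 genes as CPM per kilobase of exon sequence (left) and of coding sequence (right), on log axes, with the mean and the range of the 4 vehicle (grey) and 4 TGF-β1 (red) cultures. *Fbn1* stands at place 3 (exon length) or 4 (coding length) from the top among the grey points and at place 1 or 2 among the red ones.

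The other genes that make, store or free latent TGF-β gave a list of 28, of which 27 were tested, 18 were higher and 6 lower with TGF-β1. The called genes were 88.9% of those tested, against 41.3% of all genes (20.9% higher and 20.3% lower), and the median log2 fold change was 0.49, against -0.01 over all genes. The values over all genes were not matched for expression level. The ligands split: *Tgfb1* rose from 84.2 ± 1.78 to 136 ± 2.51 CPM (log2 fold change 0.69), while *Tgfb2* (-0.37) and *Tgfb3* (-0.28) fell. Of the integrins, *Itgb3* (1.89) and *Itgb5* (0.96), whose products pair with the αv chain and bind the TGF-β propeptide, rose, and *Itgb8*, the β chain of another αv integrin that frees TGF-β, fell by 0.55 on the log2 scale. *Itgb6* had 19 to 41 counts and did not pass the test (adjusted p = 0.074 by edgeR). *Thbs1* (1.13), coding for thrombospondin-1, which can activate latent TGF-β, and *Bgn* (1.06), coding for the proteoglycan biglycan, rose as well. So did *Tll1* (0.96) and *Bmp1* (0.95), whose proteinases cleave LTBP1 among many matrix proteins.

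The microfibril and elastic fibre list held 31 symbols, 30 of them with an identifier, and 28 were tested, with 15 higher, 7 lower and a median log2 fold change of 0.15. The called genes were 78.6% of those tested, again to be read against 41.3% of all genes, with 20.9% higher and 20.3% lower. *Fbln2*, coding for fibulin-2, a fibrillin-1 binding protein, rose from 409 ± 12.9 to 1371 ± 13.7 CPM (log2 fold change 1.74). *Lox* (1.20), coding for the crosslinking lysyl oxidase, and *Adamts6* (0.93) also rose. *Eln*, coding for elastin, the core of elastic fibres, rose by 1.43 but from 32 to 44 counts only, to 87 to 114. *Fbln1*, coding for fibulin-1, fell from 446 ± 7.58 to 196 ± 12.2 CPM (-1.19), and *Adamtsl1* fell by 1.09 on the log2 scale. *Mfap5*, named here after its values were seen since its mean was under 1 CPM, codes for a microfibril glycoprotein and rose from 9 to 18 counts to 63 to 73 (2.16), while *Mfap2*, coding for its relative, passed the test narrowly (-0.21, adjusted p = 0.0446 by edgeR) with groups that overlapped, 341 to 424 and 304 to 380 counts. With DESeq2, or its size factors in edgeR, 6 genes of the list were called as lower in place of 7. The count was also 6 without vehicle culture 1, 2 or 4 and without TGF-β1 culture 5, 6 or 7. The list thus held changes in both directions, as the fibrillins did.

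**Figure D5:**
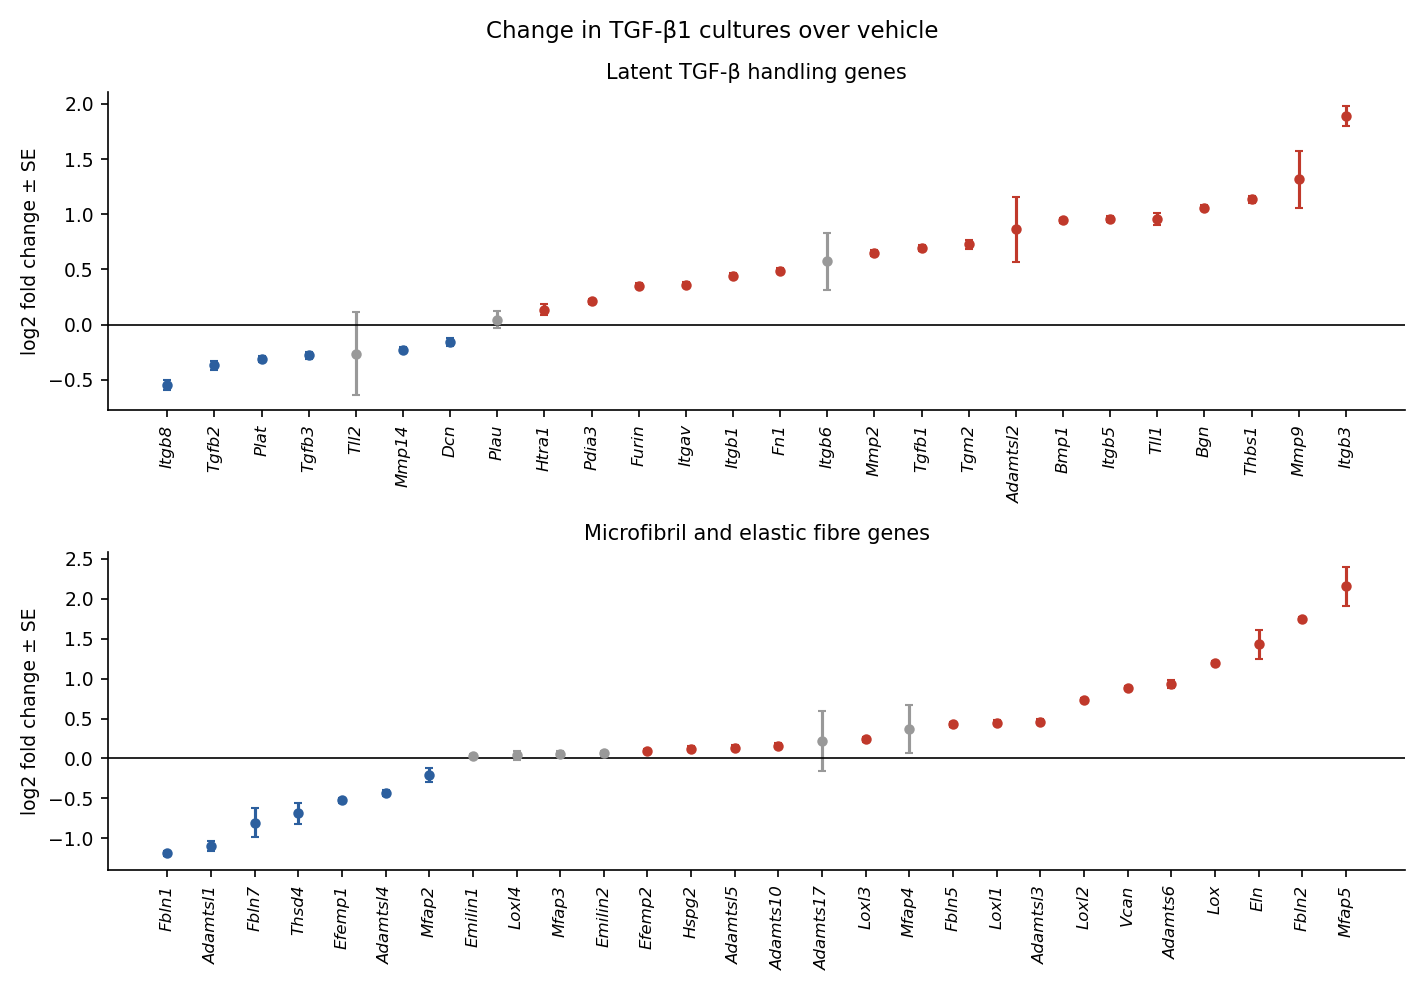
Log2 fold change, TGF-β1 over vehicle, with its SE, for tested genes of the latent TGF-β handling list (above) and the microfibril and elastic fibre list (below), ordered by size. Red genes were called as higher, blue genes as lower and grey genes were not called. The upper panel shows 26 genes, 17 red and 6 blue, with 1 gene called as higher not shown, and the lower one shows 15 red and 7 blue.

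As a description, the genes whose log2 CPM over the 8 cultures was most like that of *Fbn1* were *Specc1*, *Col5a2*, *Plod2*, *Fbln2* and *Thbs2*, with Pearson's r of 0.9996 to 0.9994. The 8 points fall into 2 groups of 4, so r mainly records the difference between the groups, and 1642 of the 22544 genes had an r over 0.95. *Col5a2* and *Thbs2*, which code for a fibrillar collagen chain and thrombospondin-2, had log2 fold changes of 1.40 and 1.30, and *Plod2*, coding for a collagen lysyl hydroxylase, 1.09.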

How the data were processed

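Raw counts per gene were deposited by the authors for 8 cultures, without normalization. Per the study's methods and the submitters' processing notes, reads of a stranded total RNA kit were aligned to mm10 with STAR 2.7.5c in 2-pass mode, duplicates were removed with samtools 1.15 and counts were made with featureCounts 2.0.3. The sources used here do not give the annotation release, the strand setting or what was done with reads that overlap more than 1 gene. Low counts were mostly even (68.5 to 70.2% of counts from 1 to 20), so mates may have been counted apart, and depth then overstates the number of fragments.

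A symbol was found for 54409 of the 54532 identifiers, and GENCODE M21 gave positions for 54495. edgeR 4.0.16 in R 4.3.3 (filterByExpr, TMM, robust quasi-likelihood test) compared the groups over 22544 genes, with Benjamini-Hochberg adjustment and a threshold of 0.05. The SE was the log2 fold change divided by the square root of F, and 95% intervals used its degrees of freedom. Levels per length divided CPM by the union of a gene's exons. Shares were compared with exact permutation tests in scipy 1.17.1. Code was tested on simulated counts. Taken as deposited, the counts of 2 cultures of a group differed by more than sampling noise (chi-square per degree of freedom 2.25 to 3.92). With counts divided by 2 the values were 1.12 to 1.96, lowest for vehicle cultures 3 and 4. How far these lie from sampling noise was not tested. The labels do not say which cultures came from separate mice, so p-values measure the spread between these cultures.

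The genes and lists were chosen with earlier results of these data known. Genes named were the 8 members, the 3 ligands, the 6 largest called changes of each list at a mean of at least 1 CPM, and the 5 most like *Fbn1*. *Itgb8*, *Itgb6*, *Bmp1*, *Mfap5*, *Mfap2* and the marker genes were named after their values were seen. For 1 gene that falls under the rule, values are not reported here. Alternatives were DESeq2 1.42.0, other scalings and filters, counts per fragment, a size threshold, coding length and each culture left out.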

Additional observations from a re-analysis of the deposited data

Results flagged for a closer look

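In 60 groups of 4 values (the 8 genes, their shares, the named list genes and the library totals), the highest or lowest culture was compared with the others by Dixon's ratio, for which chance alone flags about 1 group in 20. Single cultures stood apart in 3 of them. The share of *Lrrc32* among the presenter transcripts was 99.41% in TGF-β1 culture 5, against 99.17 to 99.18% in the other treated cultures, and that culture had the lowest count of *Nrros*, 30. *Bgn* was at 1077 CPM in vehicle culture 1, against 1052 to 1053 CPM in the other controls. *Lox* was at 2255 CPM in TGF-β1 culture 6, against 2187 to 2194 CPM in the other treated cultures. For *Bgn* and *Lox* these gaps are small beside the difference between the groups. Without TGF-β1 culture 5, the share of *Lrrc32* was 0.28 percentage points higher with TGF-β1 than with vehicle, against 0.34 with it.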

How the results depend on the processing

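No paired analysis was possible because the labels number the vehicle cultures 1 to 4 and the TGF-β1 cultures 5 to 8, so no replicate number is shared and cultures that may stem from the same isolate cannot be matched. *Ltbp1* to *Ltbp4*, *Fbn1* and *Lrrc32* kept their direction and their call in all 15 alternatives of tool, scaling, filter, fragment counting and left-out culture. *Fbn2* was lower in all 15 and called in 13 (adjusted p 0.00468 to 0.0623), with log2 fold changes of -0.23 to -0.16 when a culture was left out. The log2 fold change of *Nrros* ran from -0.13 to 0.06 when a culture was left out, being 0.044 without vehicle culture 4 and 0.063 without TGF-β1 culture 5, and *Nrros* was called in none (adjusted p 0.713 to 0.980). With an absolute log2 fold change over 1.5 as a further threshold, 2 of the 7 called genes and 452 of the 9304 over all genes remained, which follows from the threshold. Otherwise the alternatives called 6 to 7 of the 8 genes, 22 to 25 of the latent TGF-β handling list, 21 to 23 of the microfibril list and 8559 to 9311 of all genes, of which 48.1 to 52.8% were higher. With coding in place of exon length, the change in share was 2.08 percentage points for *Ltbp2* (2.89 with exon length), -0.63 for *Ltbp4* (-1.22) and 5.63 for *Fbn1* (5.27), all in the same direction and with the same exact permutation p. With a culture left out, the exact permutation test of a share can no longer pass the threshold, and the size of each change stayed within 1 SD of its main value. Depth limits *Nrros*, with 30 to 49 counts a culture, and the low genes *Eln*, *Mfap5* and *Itgb6*.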
